A study of Mus musculus with 6 samples.

Results

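Interferon-stimulated genes are genes that cells switch on after an interferon binds its receptor, and 44 of them were followed here in microglia, the resident macrophages of the brain. The 44 were taken as a list of symbols, and all 44 were found among the 38924 genes counted and were among the 16157 genes with enough reads to be tested. RNA was sequenced from microglia of wild type (WT) female C57BL/6 mice at 24 weeks of age (3 libraries) and at 5 weeks of age (3 libraries), each library being a biological replicate. These mice were the controls of a study of a Rett syndrome model, and the libraries of Het mice were not analysed here. The cells were pulled from whole brains, after the meninges were dissected off, with magnetic beads against CD11b, which other myeloid cells also carry on their surface. By the paper's account, such isolated cells are typically mostly, but not all, microglia.

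Type I interferons bind a receptor made of IFNAR1 and IFNAR2, which activates the kinases JAK1 and TYK2. The signal passes to a complex that holds STAT2 and IRF9 and binds the interferon-stimulated response element, while interferon gamma acts through another DNA element, the gamma-activated site. The products of the induced genes sense viral RNA, block its translation, degrade it or hold virus particles at the membrane, and microglia are known to raise them in infection, injury and ageing.

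Each library held 10410625 to 13554336 gene counts at 24 weeks and 23198065 to 46434788 at 5 weeks, so values at 24 weeks rest on fewer reads. Each age had its own sequencing lane, and effects of age and of lane cannot be told apart. Xist, the RNA of the inactive X chromosome, had 34439, 36581 and 78 counts in 24 weeks replicates 1, 2 and 3, against 31677 to 59021 at 5 weeks, and the Y-linked genes examined had 0 counts in all 6 libraries. Because 24 weeks replicate 3 stood apart in this way, the counts of genes that passed are also given without it. Homeostatic microglia markers dominated every library, with summed levels of 23780 to 26430 normalized CPM (counts scaled for library size and composition) at 24 weeks and 28240 to 32180 at 5 weeks. Of these 10 markers 1 was higher and 3 were lower at 24 weeks, and 9 had a negative log2 fold change. Over all genes tested, 15.5% were higher and 13.3% lower. Markers of border-associated macrophages had a summed level of 575 ± 52.8 (SD of 3 libraries) normalized CPM at 24 weeks against 1213 ± 176.1 (SD of 3 libraries) at 5 weeks, with 7 of 8 lower. Endothelial markers had 624 ± 14.6 at 24 weeks against 298 ± 25.5 at 5 weeks, with 10 of 12 higher, and 6 of 8 mural cell markers were higher. The part of these cell types in the results below was not tested, and in bulk RNA fewer cells of a type and less RNA per cell cannot be told apart.

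Sp100, Ifi44, Zbp1, Ifit1, Dtx3l, Oasl2 and Xaf1 were higher at 24 weeks, and Ifi27l2a, Gbp7, Bst2 and Irf1 were lower. Of the 44 genes, 7 were higher at 24 weeks than at 5 weeks (15.9%, against 15.5% of all genes tested) and 4 were lower (9.09%, against 13.3% of all genes tested), at an adjusted p under 0.05 by edgeR's quasi-likelihood test. Both shares lie near or below those of all genes. The median log2 fold change of the 44 was 0.22, against 0.00 over all genes tested, and 41 of the 44 changed by less than 2-fold. All 3 libraries of 24 weeks lay above all 3 of 5 weeks for 14 genes (31.8%, against 23.0% of all genes) and below them for 5 (11.4%, against 22.0%). Summed over the list, the level was 1731, 1472 and 1599 normalized CPM at 24 weeks and 1620, 1441 and 1471 at 5 weeks, so the sums of the ages overlapped. Without 24 weeks replicate 3, the list had 4 genes higher and 3 lower, where 11.7% of all genes were higher and 9.02% lower. Ifit1, Oasl2, Bst2 and Ifi44 passed with that library and not without it. Without 24 weeks replicate 1 it had 3 and 2, where 10.4% of all genes were higher and 7.94% lower. Leaving out 24 weeks replicate 2 left 7 higher and 1 lower (9.85% and 7.03% of all genes). Leaving out 5 weeks replicate 1 also left 7 and 1 (10.3% and 8.13% of all genes).

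**Figure D1:**
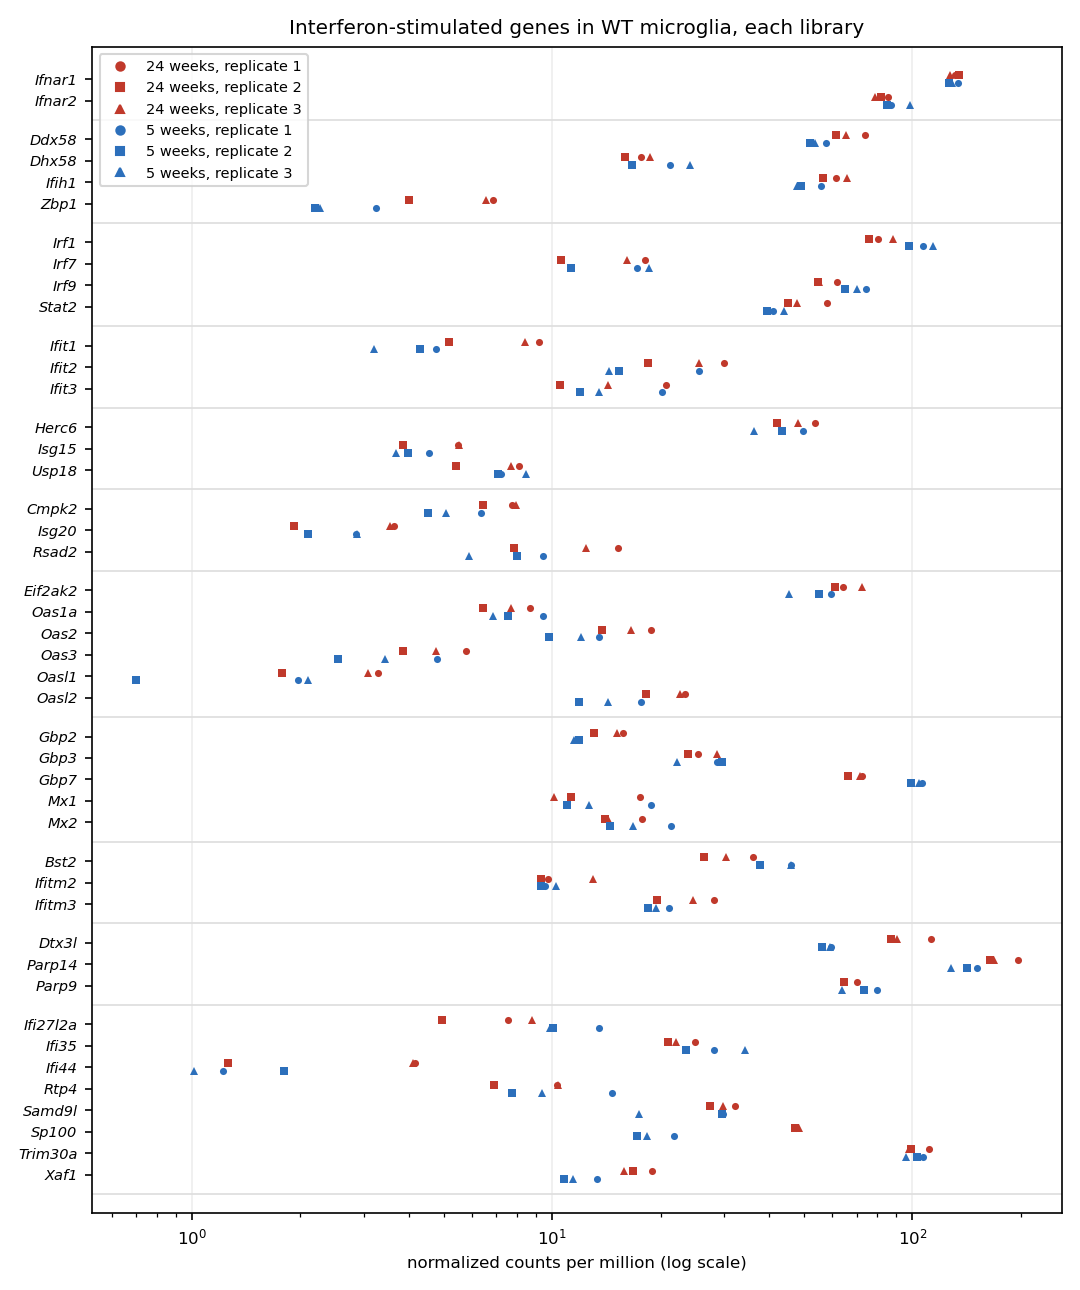
Normalized CPM (horizontal log axis) of each interferon-stimulated gene, grouped by role down the page, in the 3 libraries of 24 weeks (red, upper of each pair) and the 3 of 5 weeks (blue, lower); symbols mark the replicate. For most genes the ages overlap, while Sp100 lies between 47.2 and 48.4 at 24 weeks and between 17.3 and 21.8 at 5 weeks.

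**Figure D2:**
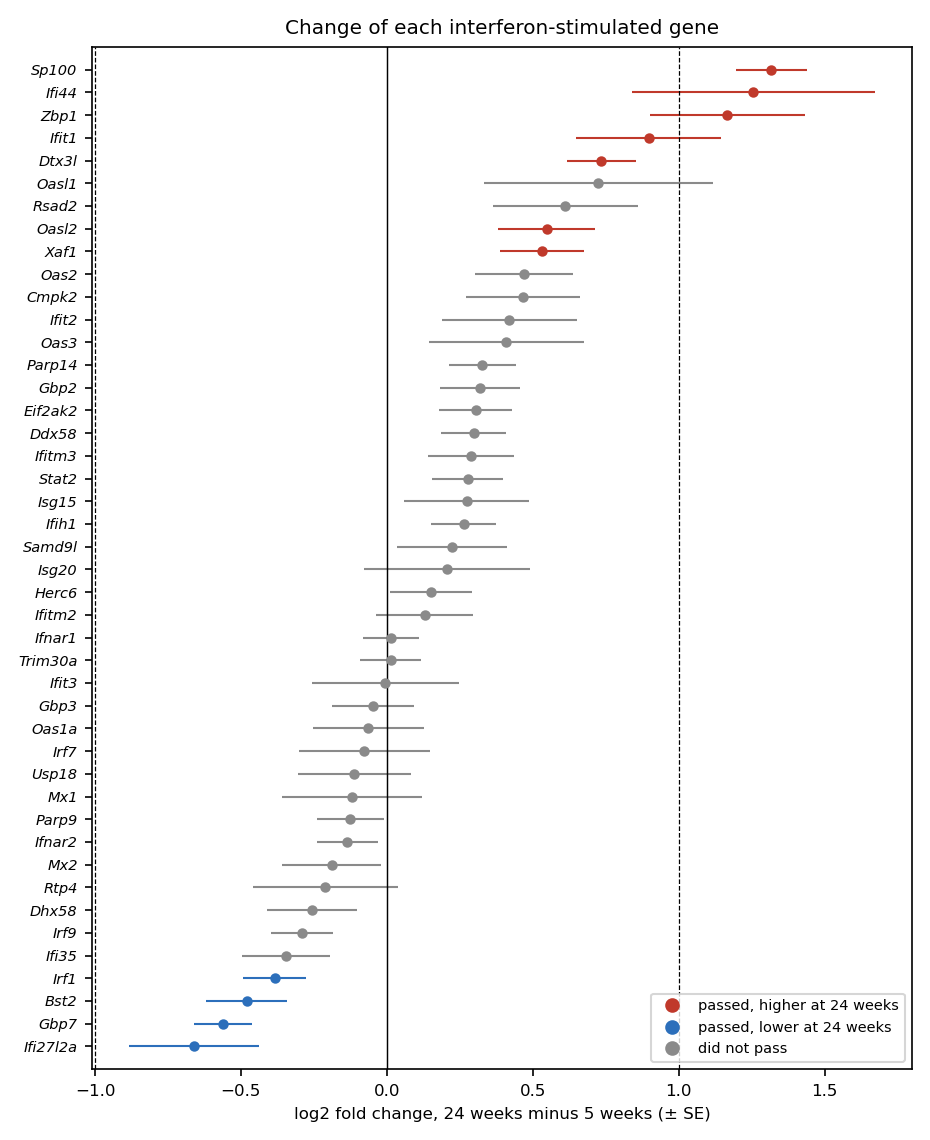
Log2 fold change of each gene, 24 weeks minus 5 weeks, with its standard error (bars), ordered by size; red marks genes that were higher at 24 weeks by the test, blue genes that were lower and grey genes that did not pass, and dashed lines mark a 2-fold change. The 7 genes that were higher reach 1.32 and the 4 that were lower reach -0.66.

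At the top of the pathway, neither chain of the type I receptor passed the test. Ifnar1 had 131.5, 134.9 and 127.2 normalized CPM at 24 weeks and 134.1, 126.2 and 129.1 at 5 weeks, which is 0.01 ± 0.10 (SE) on the log2 scale (adjusted p = 0.923). Ifnar2 had 85.7, 81.8 and 78.8 normalized CPM at 24 weeks and 87.0, 85.1 and 98.2 at 5 weeks, which is -0.13 ± 0.10 (SE) on the log2 scale (adjusted p = 0.356). The libraries of the ages overlapped for both chains. Of 17 interferon genes matched to a counted gene, 14 had 0 counts in all 6 libraries and none had enough counts to be tested. Another 4 were looked for but not matched. Reads at several positions were given to no gene, so 0 counts need not mean no reads. Ifnb1, which encodes interferon beta, had 11, 4 and 6 counts at 24 weeks and 1, 6 and 14 at 5 weeks, and Ifng, which encodes interferon gamma, had 6, 1 and 2 counts at 24 weeks and 9, 11 and 1 at 5 weeks. Such counts are too few to read a difference.

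Among the 4 sensors of foreign nucleic acid, Zbp1 was the gene that passed. Zbp1, which binds Z-form nucleic acid and can trigger necroptosis, had 6.86, 3.99 and 6.54 normalized CPM at 24 weeks and 3.25, 2.19 and 2.26 at 5 weeks. Every library of 24 weeks was above every one of 5 weeks, and the log2 fold change was 1.17 (SE 0.26, adjusted p = 0.00771). The RNA helicase Ddx58, which encodes RIG-I, had 73.9, 61.3 and 65.2 normalized CPM at 24 weeks against 57.4, 52.1 and 53.5 at 5 weeks, and Ifih1, which encodes MDA5, had 61.3, 56.4 and 65.7 against 55.8, 49.0 and 48.0. The ages did not overlap for either, but Ddx58 (log2 fold change 0.30, adjusted p = 0.0646) and Ifih1 (0.26, adjusted p = 0.101) did not pass. Dhx58, which encodes the helicase LGP2, had a log2 fold change of -0.25 (adjusted p = 0.239).

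Of the transcription factors of the pathway Irf1 was lower. Irf1, an early activator of interferon and antigen presentation genes, had 80.0, 75.7 and 88.5 normalized CPM at 24 weeks and 106.7, 98.0 and 113.8 at 5 weeks. Every library of 24 weeks lay below every one of 5 weeks, a change of -0.38 ± 0.11 (SE) on the log2 scale (adjusted p = 0.0222). The subunits of the complex that binds the response element differed in sign and did not pass: Irf9 had a log2 fold change of -0.29 (adjusted p = 0.0634) with all 24-week libraries below the 5-week ones, and Stat2 had 0.28 (adjusted p = 0.112) with all 24-week libraries above them. Irf9 shares 123 exonic bases with Rnf31 on the same strand. Irf7, which amplifies interferon production, had 18.1, 10.6 and 16.2 normalized CPM at 24 weeks and 17.2, 11.3 and 18.6 at 5 weeks, a log2 fold change of -0.08 (adjusted p = 0.824).

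The IFIT genes, whose products bind viral RNA and block translation, spread widely between libraries of 1 age, and 1 of the 3 passed. Ifit1 had 9.20, 5.18 and 8.41 normalized CPM at 24 weeks and 4.75, 4.29 and 3.21 at 5 weeks. The ages did not overlap, and the log2 fold change was 0.90 (SE 0.25, adjusted p = 0.0202). With the 5-week libraries thinned to fewer reads, the change of Ifit1 was 0.75 and did not pass (adjusted p = 0.0586). Ifit2 had 29.9, 18.5 and 25.6 normalized CPM at 24 weeks and 25.5, 15.3 and 14.4 at 5 weeks, and Ifit3 had 20.7, 10.5 and 14.3 at 24 weeks and 20.2, 11.9 and 13.5 at 5 weeks. Neither passed (Ifit2 0.42, adjusted p = 0.197; Ifit3 -0.01, adjusted p = 0.989), and their ages overlapped. The highest library was 1.62 to 1.97 times the lowest among the 3 IFIT genes at 24 weeks, against 1.06 to 1.09 for the receptor chains. Over all genes tested at 24 weeks the median of this ratio was 1.22, and 23.1% of genes exceeded 1.5. Ifit3 has a near-identical copy, Ifit3b, with 158 counts at 24 weeks and 334 at 5 weeks, so reads could have been split or set aside between them.

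None of the 3 genes of the ISG15 system passed, and none of the 3 enzymes that act on nucleotides or RNA did. Isg15, a ubiquitin-like protein joined to others after interferon, had 5.47, 3.85 and 5.51 normalized CPM at 24 weeks and 4.56, 3.98 and 3.70 at 5 weeks (log2 fold change 0.27, adjusted p = 0.365). Usp18, which removes ISG15 and damps the receptor, had a log2 fold change of -0.11 (adjusted p = 0.702) and Herc6, the ISG15 ligase of mice, 0.15 (adjusted p = 0.452). Rsad2, which encodes viperin, had 15.3, 7.84 and 12.4 normalized CPM at 24 weeks and 9.44, 7.97 and 5.89 at 5 weeks. Its ages overlapped, and its log2 fold change of 0.61 did not pass (SE 0.25, adjusted p = 0.0879). Cmpk2, a mitochondrial nucleotide kinase, had a log2 fold change of 0.47 (adjusted p = 0.0949) and the exonuclease Isg20 one of 0.21 (adjusted p = 0.619).

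In the OAS family and PKR, 1 of 6 genes passed. Oasl2, an OAS-like protein, had 23.4, 18.3 and 22.6 normalized CPM at 24 weeks and 17.7, 11.9 and 14.3 at 5 weeks. The ages did not overlap and the log2 fold change was 0.55 (SE 0.17, adjusted p = 0.0309). Oas2, which makes an oligoadenylate second messenger on sensing double-stranded RNA, also had all 24-week libraries above the 5-week ones but did not pass (0.47, adjusted p = 0.0557). Eif2ak2, which encodes PKR and halts translation, had 64.1, 61.1 and 72.4 normalized CPM at 24 weeks and 59.4, 55.1 and 45.6 at 5 weeks (0.30, adjusted p = 0.0934). Oasl1, which represses Irf7 translation, had 0.73 (adjusted p = 0.191), with a 5-week range in which the highest library was 3.0 times the lowest. Oas3 (0.41) and Oas1a (-0.06) did not pass either, and Oas1a has several close copies that were counted apart.

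Among the GTPases Gbp7 was lower. Gbp7, an interferon-induced guanylate-binding protein, had 72.5, 66.4 and 71.3 normalized CPM at 24 weeks and 106.6, 99.3 and 104.2 at 5 weeks. The ages did not overlap, and the log2 fold change was -0.56 (SE 0.10, adjusted p = 0.00202). Its relatives did not pass: Gbp2 had 0.32 (adjusted p = 0.104), with all 24-week libraries above the 5-week ones, and Gbp3 -0.05 (adjusted p = 0.828). Mx1, a dynamin-like antiviral GTPase that is nonfunctional in C57BL/6 mice, had -0.12 (adjusted p = 0.737). Mx2, annotated as a polymorphic pseudogene, had -0.19 (adjusted p = 0.433).

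Of the 3 membrane restriction factors, Bst2 was lower at 24 weeks. Bst2, which tethers budding virus, and Ifitm3, which blocks the entry of enveloped viruses, had means of 34.4 and 35.5 normalized CPM per kilobase of merged exons at 24 weeks, and of 47.9 and 29.0 at 5 weeks. Bst2 had 36.2, 26.5 and 30.4 normalized CPM at 24 weeks and 45.9, 37.8 and 46.0 at 5 weeks. The ages did not overlap, and its log2 fold change of -0.48 passed (SE 0.14, adjusted p = 0.0254). Ifitm3 had 0.29 (adjusted p = 0.164) and Ifitm2 0.13 (adjusted p = 0.596).

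Parp14, Parp9 and Dtx3l lie close together on chromosome 16 and encode ADP-ribosyltransferases and a ubiquitin ligase; the products of Parp9 and Dtx3l form a heterodimer. Dtx3l had 112.9, 86.9 and 90.9 normalized CPM at 24 weeks and 59.3, 56.1 and 59.2 at 5 weeks, whereas Parp9 had 70.3, 64.5 and 64.4 at 24 weeks and 79.9, 73.5 and 64.0 at 5 weeks. Dtx3l thus lay higher at 24 weeks in every library (log2 fold change 0.74, SE 0.12, adjusted p = 0.00126), and Parp9 overlapped between the ages (-0.12, SE 0.11, adjusted p = 0.439). The difference between these changes was not tested. The pair shares 458 exonic bases on opposite strands, and the authors counted by strand. Parp14 had 196.3, 164.4 and 168.2 normalized CPM at 24 weeks and 151.6, 142.0 and 127.9 at 5 weeks, without overlap, and did not pass (0.33, SE 0.11, adjusted p = 0.0527).

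Of the remaining 8 genes, 3 were higher and 1 was lower. Sp100, a component of PML nuclear bodies that silences viral genomes, had 47.5, 47.2 and 48.4 normalized CPM at 24 weeks and 21.8, 17.3 and 18.3 at 5 weeks, the largest change of the list (1.32 ± 0.12 on the log2 scale, with the SE; adjusted p = 4.51e-05). Ifi44, an interferon-induced protein that restrains viral growth, had 4.16, 1.26 and 4.11 normalized CPM at 24 weeks and 1.22, 1.80 and 1.02 at 5 weeks. The low value of 24 weeks replicate 2 lies within the 5-week range, and the log2 fold change of 1.26 only just passed (SE 0.42, adjusted p = 0.0427). Xaf1, a pro-apoptotic partner of XIAP, had 18.9, 16.7 and 15.8 normalized CPM at 24 weeks and 13.4, 10.8 and 11.4 at 5 weeks, without overlap (change 0.53 ± 0.14 on the log2 scale, adjusted p = 0.0180). Ifi27l2a, a small membrane protein induced by interferon, had 7.52, 4.95 and 8.79 normalized CPM at 24 weeks and 13.5, 10.1 and 9.84 at 5 weeks. Every 24-week value was below every 5-week one (log2 fold change -0.66, SE 0.22, adjusted p = 0.0449). Ifi35, Rtp4, Samd9l and Trim30a did not pass, with log2 fold changes of -0.35, -0.21, 0.22 and 0.01.

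**Figure D3:**
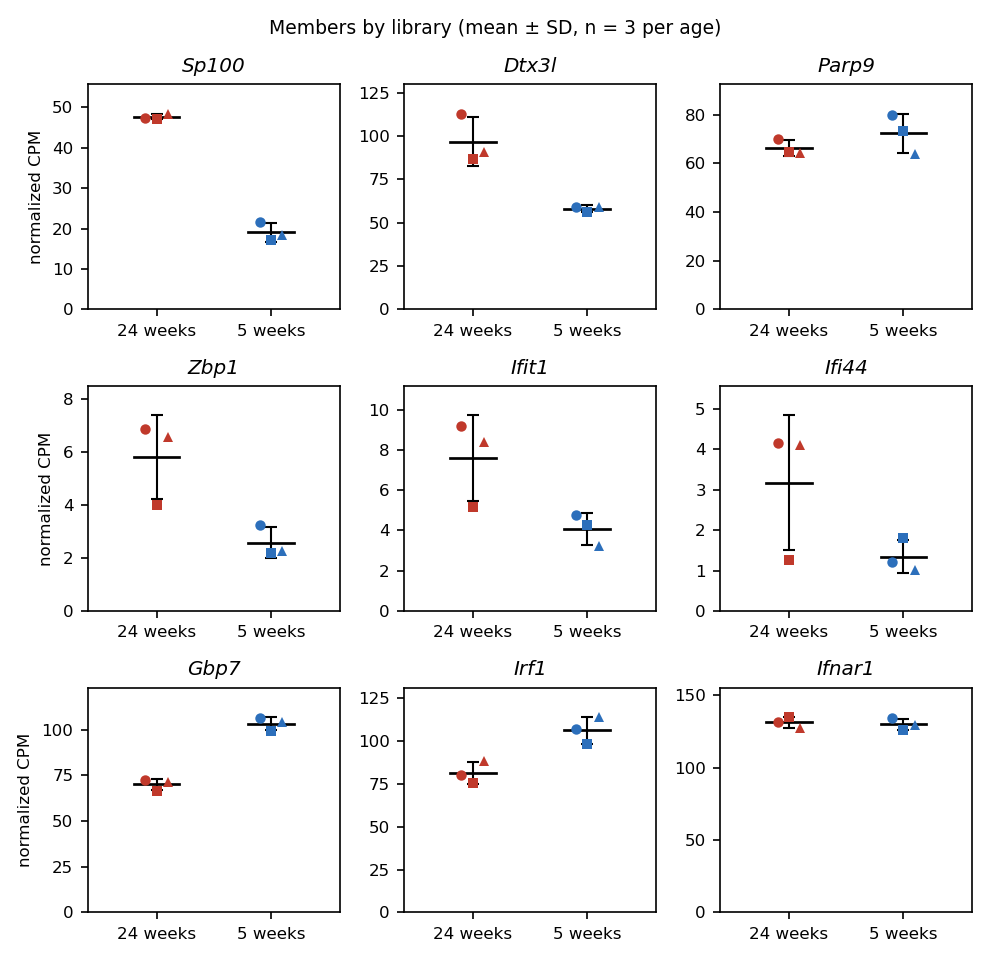
Normalized CPM (vertical axis from 0) of 9 genes by library, 24 weeks (red, left) and 5 weeks (blue, right) in each panel; lines and bars are the mean and SD of 3 libraries and symbols mark the replicate. Sp100, Dtx3l and Gbp7 separate the ages, the low 24 weeks replicate 2 of Ifi44 falls among the 5-week libraries, and Ifnar1 and Parp9 overlap.

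Of the 11 genes that passed, Sp100, Dtx3l, Zbp1 and Gbp7 passed under every alternative run. Leaving out 1 library at a time took the call from Ifi44 in 4 of 6 cases, from Oasl2, Xaf1, Irf1, Bst2 and Ifi27l2a in 3 each, and from Ifit1 in 2. With the 5-week libraries thinned to fewer reads, Ifit1 and Ifi44 no longer passed and Parp14 did. The list then had 6 genes higher and 4 lower. The sign of no member that passed was reversed. Of the 4 that passed throughout, all protein-coding, Sp100 lies on chromosome 1 (85649988 to 85709998, plus strand), Zbp1 on chromosome 2 (173206612 to 173218923, minus strand), Gbp7 on chromosome 3 (142530342 to 142550149, plus strand) and Dtx3l on chromosome 16 (35926511 to 35939151, minus strand), on GRCm38.

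The sequence before the transcription start bears on which factors could bind, and 34 of the 44 genes had a RefSeq promoter window (GRCm38.p6, 250 bases before the start and 50 after it). The core of the response element, GAAANNGAAA on either strand, was in 17 of the 34, against 3.99% of all 27025 genes with a window. The gamma-activated site TTCNNNGAA, on either strand, was in 11 (32.4%), against 9.55%. These letters say nothing on whether a factor binds. Of the 17 genes with the response element core 1 was higher and 2 were lower at 24 weeks (median log2 fold change 0.27), and of the 17 without it 5 were higher and 1 was lower (median 0.22). Of the 11 genes with the gamma-activated site 0 were higher and 3 were lower (median -0.06), and of the 23 without it 6 were higher and 0 lower (median 0.30). Of all genes tested, 15.5% were higher and 13.3% lower. Differences between genes with and without either motif were not tested. Those 3 lower genes were Gbp7, Bst2 and Irf1, and Bst2 no longer passed with length and GC trends removed. All 3 of the genes with the core that passed are printed, from 250 bases before the start up to the start, in lower case with each core in capitals, with Gbp7 at chr3:142530086-142530335 (plus strand), Ifit1 at chr19:34640639-34640888 (plus strand) and Bst2 at chr8:71537473-71537722 (minus strand).
Gbp7: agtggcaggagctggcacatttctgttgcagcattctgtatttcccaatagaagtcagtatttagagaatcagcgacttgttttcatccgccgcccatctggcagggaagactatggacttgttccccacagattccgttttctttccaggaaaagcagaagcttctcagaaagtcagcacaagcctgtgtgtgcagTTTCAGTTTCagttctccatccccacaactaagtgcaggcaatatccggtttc
Ifit1: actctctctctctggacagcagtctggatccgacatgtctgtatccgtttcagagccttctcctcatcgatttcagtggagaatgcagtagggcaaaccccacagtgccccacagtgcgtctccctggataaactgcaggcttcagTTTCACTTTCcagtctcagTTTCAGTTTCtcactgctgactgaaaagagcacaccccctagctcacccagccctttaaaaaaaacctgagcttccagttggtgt
Bst2: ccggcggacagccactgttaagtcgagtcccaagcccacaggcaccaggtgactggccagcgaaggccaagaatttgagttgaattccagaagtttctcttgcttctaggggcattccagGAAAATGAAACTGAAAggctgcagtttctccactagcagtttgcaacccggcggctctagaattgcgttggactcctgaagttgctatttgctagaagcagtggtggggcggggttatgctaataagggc
Ifit1, which was higher, holds cores starting 104 and 85 bases before the start, Gbp7, which was lower, holds 1 at 53 bases before it, and Bst2, also lower, holds 2 that overlap. The element thus stood before genes that moved in both directions.

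Many of the 44 genes were highest in replicate 1 of their age, which was noticed after the values were seen. At 24 weeks, replicate 1 was the highest library for 32 of 44 genes (72.7%, against 35.4% of all genes) and replicate 2 the lowest for 38 (86.4%, against 36.6%). At 5 weeks, replicate 1 was the highest for 31 (70.5%, against 28.2%) and replicate 2 the lowest for 28 (63.6%, against 31.6%). The full order of replicate 1 over 3 over 2 held at 24 weeks for 27 genes (61.4%, against 18.7% of all genes). At 5 weeks that order held for 17 genes (38.6%, against 9.24%) and the order 1 over 2 over 3 for 14 (31.8%, against 19.0%). Among the 52 other interferon pathway genes tested, replicate 1 was the highest for 67.3% and replicate 2 the lowest for 65.4% at 24 weeks, whereas at 5 weeks replicate 3 was the highest for 63.5% and replicate 1 for 23.1%. The median log2 deviation of the 44 genes from the mean of their age was 0.161 in 24 weeks replicate 1, -0.167 in 24 weeks replicate 2 and 0.155 in 5 weeks replicate 1. The summed level of 9 neutrophil and monocyte markers was also highest in replicate 1 and lowest in replicate 2 of each age, with 220.2, 92.0 and 188.1 normalized CPM at 24 weeks and 302.8, 134.2 and 207.3 at 5 weeks. Border-associated macrophage markers also summed highest in replicate 1 (624.8, 519.6 and 580.7 at 24 weeks, and 1351, 1273 and 1015 at 5 weeks). Homeostatic microglia markers did so at 24 weeks (26430, 23780 and 25960) but not at 5 weeks (30450, 28240 and 32180). Oligodendrocyte markers summed highest in replicate 2 at 24 weeks (1882, 2864 and 1016). Of the 9 neutrophil and monocyte markers, S100a8, S100a9, Retnlg, Ngp, Camp and Ly6c2 had the order of their sum at both ages. The monocyte marker Ccr2 did not, with 21.2, 28.5 and 26.8 normalized CPM at 24 weeks and 35.1, 33.8 and 23.7 at 5 weeks, nor did Plac8, with 4.01, 6.21 and 7.10 at 24 weeks and 12.8, 11.6 and 6.38 at 5 weeks. Ly6g had 1, 1 and 3 counts at 24 weeks, too few to read an order. The part of any of these cell types in the order was not tested. Under total-count scaling, replicate 1 was the highest for 29 genes and replicate 2 the lowest for 33 at 24 weeks. At 5 weeks replicate 1 was then the highest for 32, replicates 2 and 3 were each the lowest for 22, and the order 1 over 2 over 3 (19 genes) was more frequent than 1 over 3 over 2 (13 genes). Set against the 5-week mean, the median log2 difference of the 44 genes was 0.356, -0.0309 and 0.26 in 24 weeks replicates 1, 2 and 3.

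**Figure D4:**
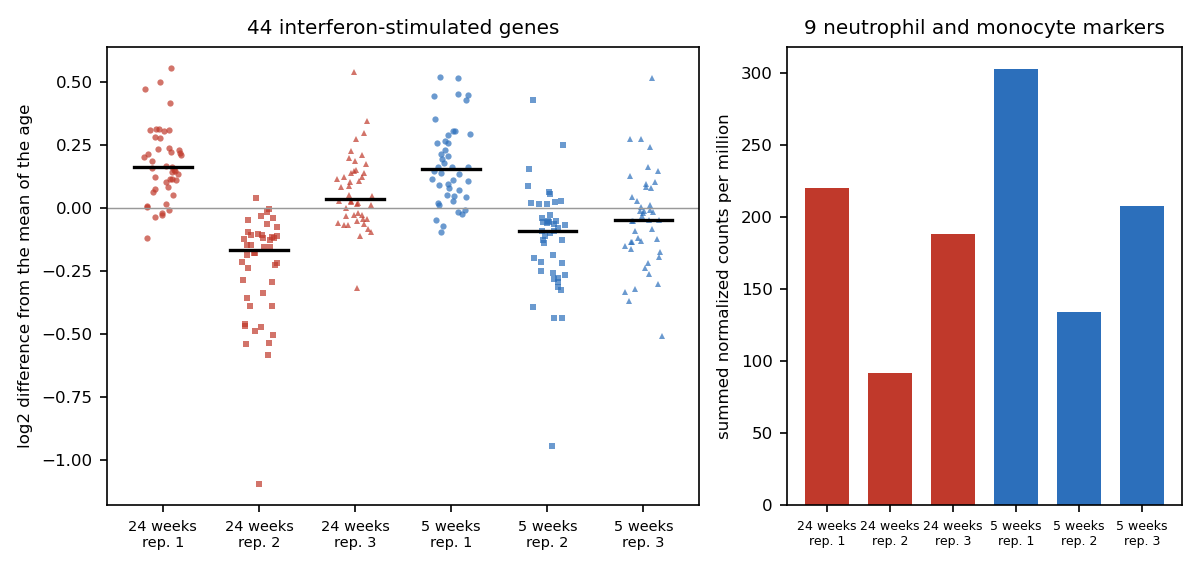
Left, log2 difference of each of the 44 genes from the mean of its age in each library (24 weeks red, 5 weeks blue; black bars are medians). Right, the summed normalized CPM of 9 neutrophil and monocyte markers in the same libraries. The genes of 24 weeks replicate 2 lie below the mean of their age for most of the list, and that library also has the lowest marker sum, 92.0.

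The change with age also ran with transcript length. Across the 44 genes Spearman's rho between transcript length and log2 fold change was 0.357, given as a description of points that share libraries, and over 13858 protein-coding genes tested it was likewise 0.357. Between GC content and log2 fold change rho was -0.337 across the 44 genes and -0.0454 over the protein-coding genes. The 22 shorter genes had a median log2 fold change of -0.06 and the 22 longer ones of 0.30. With the length and GC trends of all genes removed, rho with length was 0.0285 across the 44 genes and 0.0247 over the protein-coding genes. The removal takes out this relation over all genes, so the fall in rho is built into it. With the trends removed, 11 of the 44 genes were higher and 3 lower, where 16.3% of all genes were higher and 17.7% lower. The median log2 fold change of the list was then 0.12. Isg15, Ifitm3, Ifitm2 and Gbp2 then joined the genes that were higher and Irf9 those that were lower, while Bst2 (adjusted p = 0.262) and Ifi27l2a (adjusted p = 0.282) no longer passed. Scaled by total counts alone, which moved the median of all genes to 0.10, the list had 14 genes higher and 2 lower, where 3229 of all 16157 genes tested were higher and 1466 (9.07%) lower.

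**Figure D5:**
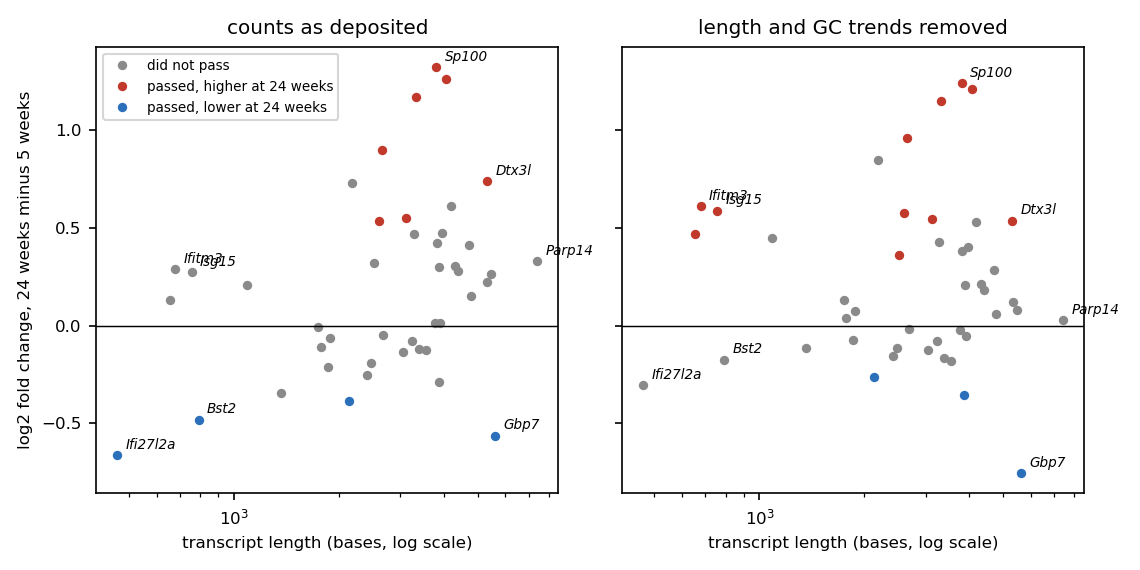
Log2 fold change (24 weeks minus 5 weeks) of the 44 genes against transcript length (log axis, bases), from the counts as deposited (left) and after the length and GC trends of all genes were removed (right); red passed as higher, blue as lower, grey did not pass. The rank relation is 0.357 on the left and 0.0285 on the right, where the removal of the trends lowers it by design. The short genes Isg15 and Ifitm3 pass only on the right.

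Irf2 and Tlr9 were higher at 24 weeks among other genes of the pathway, and Irf3 and Ifngr1 were lower. Of 71 such genes matched to a counted gene, 52 were tested. Of these, 10 were higher (19.2%, against 15.5% of all genes) and 5 lower (9.62%, against 13.3%) at 24 weeks, with a median log2 fold change of 0.06. Irf2, a repressor of interferon response genes, had 99.5, 92.5 and 99.5 normalized CPM at 24 weeks and 33.2, 35.2 and 40.0 at 5 weeks, a change of 1.43 ± 0.11 (SE) on the log2 scale (adjusted p = 1.62e-05). Irf3, which is activated by nucleic acid sensing, was lower (-0.40, adjusted p = 0.0287). Of the interferon gamma receptor chains, Ifngr1 was lower, with 506.2, 430.0 and 454.3 normalized CPM at 24 weeks and 676.9, 618.1 and 618.5 at 5 weeks (-0.46, adjusted p = 0.0128), and Ifngr2 did not pass (0.24, adjusted p = 0.131). Of 24 genes of nucleic acid sensing that were tested, 7 were higher and 2 lower. Tlr9, a receptor for CpG DNA, had 169.1, 151.6 and 170.8 normalized CPM at 24 weeks and 40.7, 48.6 and 89.3 at 5 weeks. Its highest 5-week library was 2.19 times the lowest, and its log2 fold change was 1.46 (SE 0.24, adjusted p = 0.0013). Samhd1, which depletes nucleotides, was higher by 0.58 (adjusted p = 0.00194) and Tlr3, a receptor for double-stranded RNA, by 0.57 (adjusted p = 0.00215). Of 12 negative regulators, Nlrc5 was higher (0.69, adjusted p = 0.0118) and the phosphatase Ptpn6 lower (-0.46, adjusted p = 0.00867).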

How the data were processed

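Libraries of WT microglia from 3 mice at 24 weeks and 3 at 5 weeks were compared; replicate numbers came from the sample titles. Per the study's methods, the authors used trim_galore for trimming, TopHat2 2.0.13 for alignment (GRCm38) and HTSeq 0.6.1, run by strand, for the raw counts per Ensembl gene that they deposited. No normalization is in the deposited counts. Rows naming no gene, 60.6 to 65.8% of each file's counts, were left out. Of reads placed at 1 position, 48.69 to 54.92% at 24 weeks and 39.98 to 41.84% at 5 weeks lay outside the counted exons. The part of this difference in the fold changes was not tested. Gene positions and lengths came from GENCODE mouse release 21 (GRCm38), matching 37607 of 38924 identifiers.

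Counts were tested with edgeR 4.0.16 in R 4.3.3: TMM scaling, filterByExpr with its default settings (16157 genes kept), a quasi-likelihood model of age alone, and p-values adjusted by Benjamini-Hochberg across those genes and called at 0.05. Normalized CPM used the same TMM factors. The alternatives were median-ratio size factors, total counts, DESeq2 1.42.0, limma 3.58.1 (voom), no filter, at least 50 counts in every library, removal of length and GC trends, a replicate block, thinning of the 5-week libraries, protein-coding genes only and each library left out. On simulated counts for this comparison (15961 genes) recovery was 24.5% at 1.5-fold, 68% at 2-fold and 98% at 3-fold, and 17 of 15763 unchanged genes were called. The members and lists were chosen with earlier results of these data known; all 44 members may be named, and of each other list up to 4 genes that passed, by smallest p, and those a short count needs. Deviations of libraries from the mean of their age used log2(normalized CPM + 0.1). Library age and lane were not separable. Some genes of the lists are counted but not reported here by name.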

Additional observations from a re-analysis of the deposited data

How the results depend on the processing

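Of the 7 genes higher and 4 lower at 24 weeks, the counts moved by over 1.5 times under total-count scaling (14 higher, 2 lower) and, for the genes higher, with length and GC trends removed (11). With the trends removed, the other pathway genes had 8 lower, against 5. Leaving out 1 library at a time gave 3 to 9 list genes higher and 1 to 5 lower, where 9.85 to 20.3% of all genes were higher and 7.03 to 17.7% lower. Those runs gave 8 to 16 other pathway genes higher and 2 to 6 lower, and a median log2 fold change of the list of 0.156 to 0.292. That median, 0.215 otherwise, was 0.125 with the trends removed, 0.139 with at least 50 counts in every library and 0.307 under total counts. The lowest counts of list genes higher came without 24 weeks replicate 1 (3) or 3 (4), and those of genes lower without 5 weeks replicate 1 (1), 24 weeks replicate 2 (1) or 24 weeks replicate 1 (2). For other pathway genes, 16 were higher without 5 weeks replicate 3, and 3, 3 and 2 were lower without 5 weeks replicate 1, 24 weeks replicate 1 and 24 weeks replicate 2. For the 11 members that passed, 146 of 175 values across alternatives kept their call, 29 no longer passed and 0 changed sign; of 525 values for the other 33, 25 passed. Over all genes tested, same-numbered samples had correlations of deviations of 0.0656, 0.08876 and -0.04515, and samples of unlike number -0.1315 to 0.06649. Whether the replicate numbers pair the samples for the list genes was not tested. With the replicate block the list had 7 higher and 4 lower, with Oas2 gained and Ifi44 lost, and a median of 0.227. The cause of these shifts was not tested. Members with few reads limit the depth: Ifi44, Oasl1 and Isg20 had under 50 counts in at least 1 library.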

Other observations

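Close copies of the members were counted apart, and reads at several positions, which no gene received, were 22.5 to 23.5% of all counts at 24 weeks and 32.7 to 35.5% at 5 weeks. Their raw counts, not scaled for depth, were 2551 at 24 weeks and 6392 at 5 weeks for Trim30d, a copy of Trim30a, and 970 at 24 weeks and 2121 at 5 weeks for Gbp2b, a copy of Gbp2. Oas1g, a copy of Oas1a, had 79 counts at 24 weeks and 163 at 5 weeks. The part of shared reads in the values of Trim30a, Gbp2 and Oas1a was not tested.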
